A study of Mus with 6 samples.

Results

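The genes described here are 7 members of the suppressor of cytokine signaling (SOCS) family (Cish, Socs1, Socs2, Socs3, Socs4, Socs5 and Socs7) and the 3 PIM kinase genes (Pim1, Pim2 and Pim3). They were taken by symbol, as feedback and effector genes that STAT factors induce, from a table of 10995 protein-coding genes, and all 10 were listed in it. RNA-Seq was performed on CD4+ T cells from the spleen of WT mice, naive at the start of the culture, to ask how neutralizing VEGF-B changes the transcriptome of activated T cells. The cultures of both groups were stimulated up to day 3 with antibodies to CD3 at 5 μg/mL, antibodies to CD28 at 2 μg/mL and 100 U/mL of IL-2, so that a cytokine known to induce several of these genes was supplied to each culture. The anti–VEGF-B group had in addition an antibody against VEGF-B at 1 μg/mL, and the IgG group had normal goat IgG at 1 μg/mL, with 3 libraries in each group. The sources do not say whether the 3 libraries of a group came from separate mice or cultures, so the p values measure the spread between these libraries, which may be technical. Cultures without either antibody and earlier times were not analysed here.

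SOCS proteins bind phosphorylated tyrosines of cytokine receptors or JAK kinases through an SH2 domain, and recruit a ubiquitin ligase built on cullin 5 through a C-terminal SOCS box. As STAT factors switch on several SOCS genes, these proteins close a negative feedback loop on the cytokine that induced them. PIM kinases, which cytokines and the T cell receptor induce and which promote survival, protein synthesis and growth, lack a regulatory domain and are active once made, so that the amount of their mRNA and protein is a main point of control.

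Values are FPKM, that is, reads scaled to transcript length and to the reads of the library, so that levels can be compared between genes. The FPKM of the listed genes summed to between 260058 and 276622 in a library. The depth of the libraries is unknown, because FPKM carry no read number and the values had no common step from which reads could be recovered. The defining CD4+ T cell genes were present, with the 7 markers summing to between 485 and 541 FPKM with anti–VEGF-B and between 483 and 565 with IgG. Of the markers of other cell types, none of those for natural killer or erythroid cells and 1 of 7 for B cells were listed. Of the CD8 T cell markers, Cd8a was at 0.182 FPKM or less and Cd8b1 between 2.27 and 4.51 FPKM, and their part in the results was not tested. The 4 listed myeloid markers summed to between 11.4 and 12.9 FPKM with anti–VEGF-B and between 12.8 and 28.8 with IgG, with the highest value in IgG replicate 3, where Lyz2 stood at 16.4 FPKM against 3.26 to 4.19 in the other libraries. IgG replicate 2 lay apart from the other IgG libraries on the first principal component (score 27.2 against 8.76 and 11.8). Over the 8816 genes averaging 1 FPKM or more, the median difference between anti–VEGF-B and IgG was -0.15 on the log2(FPKM + 1) scale.

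When VEGF-B was neutralized, 5 of the 7 SOCS genes fell, Pim1 fell and Pim2 and Pim3 rose. All 10 genes had a mean over 1 FPKM in both groups and were tested with limma on log2(FPKM + 1), with Benjamini-Hochberg adjustment over the 8816 genes. The SOCS genes called lower (adjusted p under 0.05) were Socs1, Socs2, Socs3, Cish and Socs5, while Socs4 and Socs7 did not pass. Of all genes tested, 23.8% were called lower and 4.87% higher. As these are bulk samples, fewer cells of a type and less RNA per cell cannot be told apart in any of these values. In each of the 10 genes the ranges of the groups did not meet, with anti–VEGF-B lower for 8 genes and higher for 2, where 38.5% of all tested genes were separated in the lower direction and 10.5% in the higher one. The median log2 fold change was -0.41 over the 10 genes and -0.42 over the 7 SOCS genes, against -0.15 over all genes. The 6 falls became 3 without anti–VEGF-B replicate 3 (Socs1, Socs2 and Pim1) and 4 without IgG replicate 2, while the 2 rises were called in every fit that left out 1 library. Over all tested genes 2099 lower calls became 702 without anti–VEGF-B replicate 3 and 1073 without IgG replicate 2. When each gene was given its own variance alone, limma called 0 of the 10 genes, although 9 had an unadjusted p under 0.05, as 9 did in the moderated fit.

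**Figure D1:**
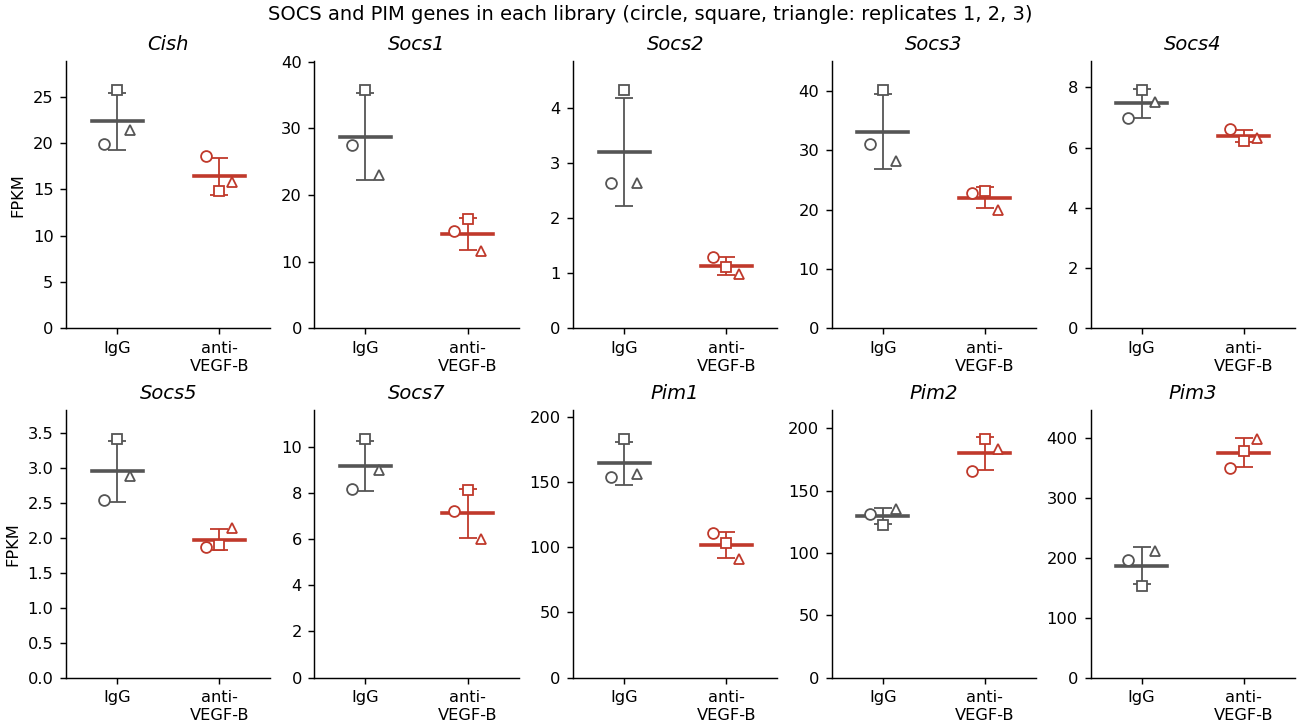
FPKM of each SOCS and PIM gene on linear axes from 0, with the 3 IgG libraries in grey and the 3 anti–VEGF-B libraries in red; symbols mark replicates 1 to 3, thick bars the mean and thin bars the SD. The groups do not overlap for any of the 10 genes, and IgG replicate 2 (square) is the highest IgG library for all 7 SOCS genes and Pim1 and the lowest for Pim2 and Pim3.

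Among the SOCS genes, the largest falls were those of Socs1 and Socs2. Socs1 (chr16:10783808-10785536, GRCm38, minus strand), whose product binds JAK kinases and blocks their activity directly, had 14.6, 16.4 and 11.7 FPKM in anti–VEGF-B replicates 1 to 3 and 27.4, 35.8 and 23.1 FPKM in the IgG replicates. The highest anti–VEGF-B library was thus under the lowest IgG library. The means were 14.2 ± 2.39 and 28.8 ± 6.46 FPKM (SD, n = 3 each), a ratio of 0.494. The log2 fold change of -0.96 had a standard error of 0.162 and a limma adjusted p = 0.00714, and lay -0.81 from the median of all genes. With a two-sided exact permutation of the 6 libraries p = 0.1 was found, the smallest that this design allows, as for each of the 10 genes.

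Socs2 (chr10:95385362-95417180, minus strand), a feedback inhibitor known for restraining growth hormone and other signals that use STAT5, was scarce. It had 1.3, 1.11 and 0.985 FPKM with anti–VEGF-B and 2.63, 4.33 and 2.64 FPKM with IgG. The fall from 3.20 ± 0.975 to 1.13 ± 0.159 FPKM, a ratio of 0.354, was the steepest of the family on the FPKM scale. The log2 fold change, with the pseudocount of 1 that damps low genes, was -0.96 with a standard error of 0.157 and a limma adjusted p = 0.00685, and a pseudocount of 0.1 gave -1.39. It lay -0.80 from the median of all genes. The Socs2 span holds a long noncoding RNA gene of RefSeq, Gm33230, over 502 bases, and whether the counting used strand is not stated.

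Socs3 (chr11:117966079-117970047, minus strand) is the other SOCS gene whose product inhibits JAK kinases directly, and it is known for limiting signals through gp130, the shared receptor chain of the IL-6 family. It had 22.8, 23.2 and 20.01 FPKM with anti–VEGF-B and 31.0, 40.2 and 28.1 FPKM with IgG. The anti–VEGF-B libraries lay close together and the IgG libraries were spread more widely, with no overlap. The log2 fold change of -0.55 had a standard error of 0.127 and a limma adjusted p = 0.0152, and lay -0.40 from the median of all genes. Leaving out anti–VEGF-B replicate 3 ended this call (limma adjusted p = 0.0566), and the alternatives ranged from 0.0118 to 0.107.

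Cish (chr9:107296026-107302784, plus strand), a STAT5 target gene that IL-2 induces and whose product binds activated receptors, had 18.6, 14.8 and 15.8 FPKM with anti–VEGF-B and 19.9, 25.8 and 21.4 FPKM with IgG. Anti–VEGF-B replicate 1 came close to IgG replicate 1. The means were 16.4 ± 1.99 and 22.4 ± 3.05 FPKM, and the log2 fold change of -0.42 had a standard error of 0.117 and a limma adjusted p = 0.0275, and lay -0.27 from the median of all genes. This call did not hold without IgG replicate 2 (-0.32, adjusted p = 0.0819 from limma), anti–VEGF-B replicate 3 (0.0835) or anti–VEGF-B replicate 2 (0.0789). It was also lost after median centring (-0.20, adjusted p = 0.161, the most that scaling moved it), quantile normalization (0.0594) and cyclic loess (0.0573), with 0.0242 to 0.161 over the alternatives.

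The remaining SOCS genes, whose products are less firmly tied to the JAK-STAT pathway, had smaller log2 fold changes with the pseudocount of 1. Socs5 (chr17:87107679-87137583, plus strand), linked to IL-4 and EGF receptor signals, had 1.87, 1.90 and 2.14 FPKM with anti–VEGF-B and 2.54, 3.42 and 2.89 FPKM with IgG. Its log2 fold change of -0.41 had a standard error of 0.113 and a limma adjusted p = 0.0281, and lay -0.26 from the median of all genes. On the FPKM scale the Socs5 ratio of 0.667 was lower than that of Cish (0.734). A pseudocount of 0.1 gave -0.55 for Socs5 and -0.44 for Cish, as the pseudocount of 1 damps low genes. The call was kept in 5 of 15 alternatives and in none of the 4 other scalings, with an adjusted p from 0.0218 to 0.229, and of the fits that left out 1 library it passed only without IgG replicate 1. Quantile normalization, cyclic loess and median centring brought the log2 fold change to -0.16, -0.18 and -0.24.

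Socs7 (chr11:97362551-97398542, plus strand) had 7.24, 8.14 and 6.02 FPKM with anti–VEGF-B and 8.19, 10.4 and 8.99 FPKM with IgG. The highest anti–VEGF-B value was next to the lowest IgG value. The log2 fold change was -0.33 (95% confidence interval -0.60 to -0.049, adjusted p = 0.0738 from limma), and lay -0.17 from the median of all genes. It was -0.16 after quantile normalization or cyclic loess and -0.12 after median centring. Socs4 (chr14:47276931-47296102, plus strand), linked to EGF receptor turnover, had 6.61, 6.23 and 6.31 FPKM with anti–VEGF-B and 6.98, 7.92 and 7.51 FPKM with IgG. Its log2 fold change of -0.20 (95% confidence interval -0.40 to 0.0047, adjusted p = 0.123 from limma) lay -0.045 from the median of all genes, and turned to 0.0077 after median centring.

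In contrast to the SOCS genes, the PIM genes were among the abundant mRNAs of these cells, and they moved in opposite directions. Pim1 (chr17:29490812-29496111, plus strand), the family member best known as a STAT target and first found as a site of retroviral insertion in T cell lymphomas, had 111, 103 and 90.7 FPKM with anti–VEGF-B and 154, 183 and 156 FPKM with IgG. Every anti–VEGF-B library was well under every IgG library. The mean fell from 164 ± 16.4 to 102 ± 10.1 FPKM, a ratio of 0.618, and the log2 fold change of -0.69 had a standard error of 0.0989 and a limma adjusted p = 0.00491, and lay -0.54 from the median of all genes.

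Pim2 (chrX:7878262-7883432, plus strand), which supports survival and growth of T cells when mTOR is inhibited, had 165, 192 and 183 FPKM with anti–VEGF-B and 131, 123 and 135 FPKM with IgG. The lowest anti–VEGF-B library was above the highest IgG library. The mean rose from 130 ± 6.29 to 180 ± 13.3 FPKM, a ratio of 1.39, and the log2 fold change of 0.47 had a standard error of 0.0797 and a limma adjusted p = 0.00714, and lay 0.62 from the median of all genes.

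Pim3 (chr15:88862186-88865718, plus strand), a kinase that shares substrates with the other two, changed most of the PIM genes. It had 350, 379 and 399 FPKM with anti–VEGF-B and 196, 153 and 212 FPKM with IgG. The gap between the groups was wider than the range of either one. The mean rose from 187 ± 30.7 to 376 ± 24.7 FPKM, a ratio of 2.01. The log2 fold change of 1.02 had a standard error of 0.119 and a limma adjusted p = 0.00469, and lay 1.17 from the median of all genes, the 13th largest rise of the 8816 genes, with the 12th lowest p. The span of Pim3 shares 321 bases with a neighbouring RefSeq gene, Gm33049, and that of Pim1 shares 733 bases with the long noncoding RNA gene Gm26885. Neither neighbour was among the listed genes, and reads of the shared stretches cannot be assigned here.

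The falls of Socs1, Socs2, Socs3 and Pim1 and the rises of Pim2 and Pim3 passed at an adjusted p under 0.05 under all 4 other scalings between libraries (quantile, median, Actb and cyclic loess), with log2 fold changes from -0.89 to -0.74 for Socs1, from -0.91 to -0.73 for Socs2, from -0.50 to -0.33 for Socs3, from -0.75 to -0.46 for Pim1, from 0.41 to 0.70 for Pim2 and from 0.94 to 1.25 for Pim3. Median centring moved Pim1 by more than 1.5 times, from -0.69 to -0.46, and Socs3 likewise, from -0.55 to -0.33. Without IgG replicate 3, the library with the high myeloid markers, the log2 fold changes were -1.10 for Socs1, -0.66 for Socs3, -0.72 for Pim1, 0.50 for Pim2 and 1.11 for Pim3, each farther from 0 than with all libraries, and Socs5 lost its call (limma adjusted p = 0.0639).

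**Figure D2:**
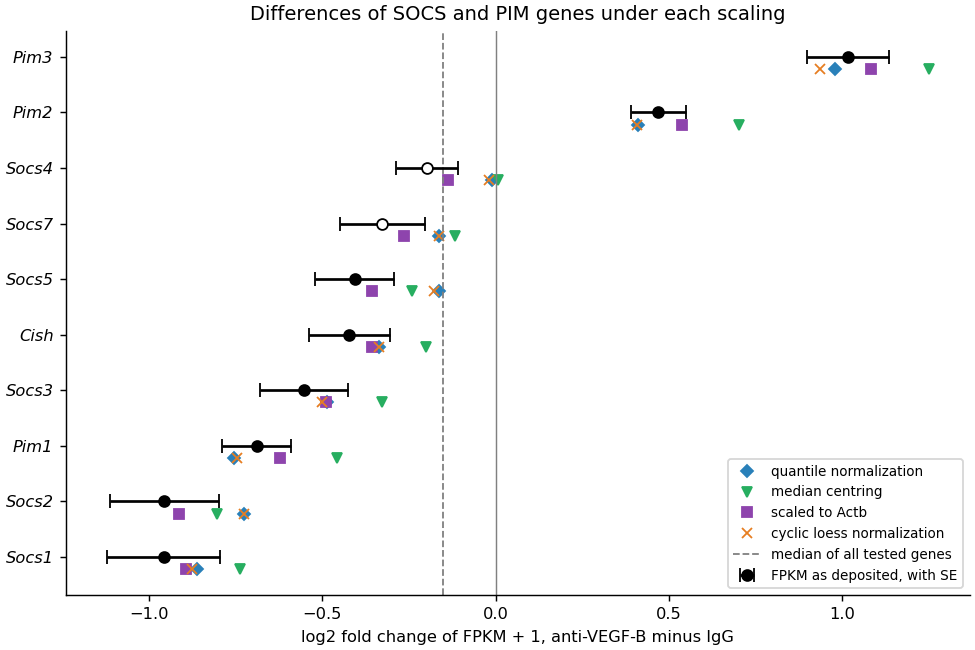
Log2 fold change of FPKM + 1 (anti–VEGF-B minus IgG) of the 10 genes with its standard error (black circles, open where the limma adjusted p was not under 0.05), and below each the value under 4 other scalings between libraries. Pim3 and Pim2 stay to the right of 0 and the other genes to its left under each scaling, except Socs4, which lies at 0.0077 after median centring; the dashed line is the median of all tested genes at -0.15.

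The opposite changes altered the mix of PIM mRNA. Pim1 made up 17.7, 15.3 and 13.5% of the summed PIM FPKM with anti–VEGF-B and 31.9, 39.9 and 31.0% with IgG. Pim3 made up 55.9, 56.3 and 59.3% with anti–VEGF-B and 40.8, 33.3 and 42.1% with IgG. The share of Pim2 lay between 26.4 and 28.4% with anti–VEGF-B and between 26.8 and 27.3% with IgG, so that the groups overlapped for Pim2 alone. The sum itself was 627, 674 and 673 FPKM with anti–VEGF-B against 481, 459 and 503 FPKM with IgG, while the sum of the 7 SOCS genes was 73.1, 71.7 and 62.9 against 98.6, 128 and 94.7 FPKM. With VEGF-B neutralized, SOCS mRNA was therefore lower and PIM mRNA in sum higher.

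**Figure D3:**
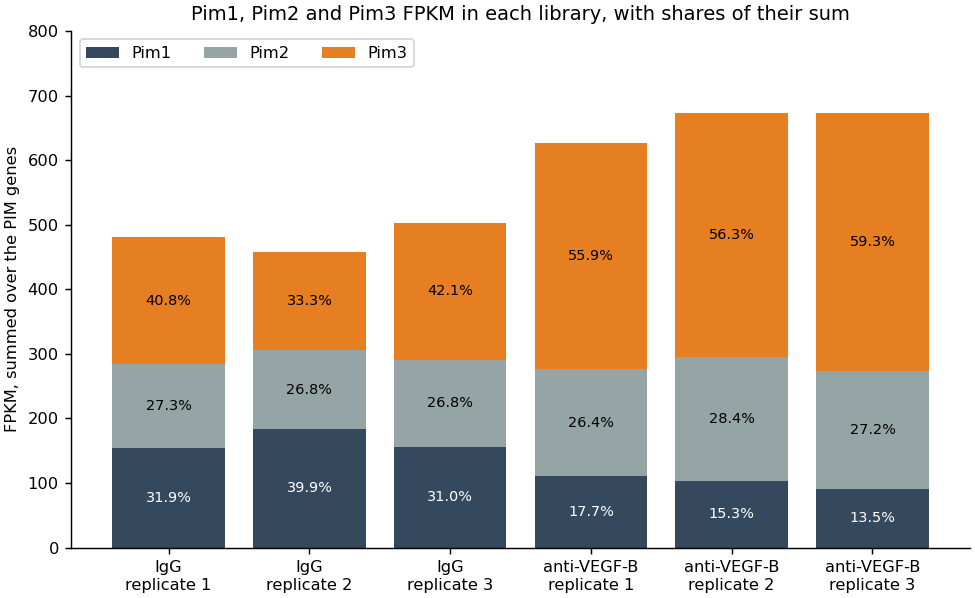
Stacked bars of the FPKM of Pim1, Pim2 and Pim3 in each of the 6 libraries, with the percentage of their sum written in each segment. With anti–VEGF-B, Pim3 takes 55.9 to 59.3% and with IgG 33.3 to 42.1%, while Pim1 takes 13.5 to 17.7% and 31.0 to 39.9%.

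A ratio of FPKM within a library does not depend on a scale factor of that library. Between the groups 4 such ratios were compared as differences of log2(FPKM + 1). With the pseudocount these do depend on a scale factor where a gene is scarce, as Socs2 is. The FPKM of Pim1 divided by that of Pim2 was 0.670, 0.537 and 0.495 with anti–VEGF-B and 1.17, 1.49 and 1.16 with IgG. Pim1 was thus the more abundant of the pair in every IgG library and the less abundant in every anti–VEGF-B library. On the log2(FPKM + 1) scale this ratio was -0.82 ± 0.22 with anti–VEGF-B and 0.34 ± 0.21 with IgG, a difference of -1.16. For Pim1 to Pim3 the difference was -1.71, and the FPKM ratio ran from 0.227 to 0.317 with anti–VEGF-B and from 0.737 to 1.20 with IgG. Among the SOCS genes, Socs1 fell relative to Socs3, from FPKM ratios of 0.821 to 0.891 with IgG to 0.582 to 0.707 with anti–VEGF-B (-0.40 as a difference on the log2 scale). Cish was 13.3 to 16.04 times as abundant as Socs2 with anti–VEGF-B and 5.95 to 8.11 times with IgG (0.53 on that scale, which the pseudocount damps for Socs2). None of the 4 ratios overlapped between the groups. For the Pim1 ratios this was fixed in advance, as Pim1 was lower and Pim2 and Pim3 higher in every anti–VEGF-B library. It therefore adds nothing to the calls of these genes. Each ratio had p = 0.1 when the libraries were exchanged in every way (exact permutation test, two-sided). This test cannot give a smaller value here (0.1 also after adjustment over the 4 ratios).

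With IgG the means ran from Pim3 (187 FPKM) and Pim1 (164) over Pim2 (130), Socs3 (33.1), Socs1 (28.8), Cish (22.4), Socs7 (9.18) and Socs4 (7.47) to Socs2 (3.20) and Socs5 (2.95 FPKM). The ranges overlapped between Pim3 and Pim1, between Socs3 and Socs1, between Socs1 and Cish and between Socs2 and Socs5. With anti–VEGF-B the order was Pim3, Pim2, Pim1, Socs3, Cish, Socs1, Socs7, Socs4, Socs5 and Socs2, and only Cish and Socs1 and Socs7 and Socs4 overlapped. Pim1 thus lay above Pim2 with IgG and below it with anti–VEGF-B, and Socs2, level with Socs5 within the spread of the IgG libraries, lay below it with anti–VEGF-B. On the scale of the whole table, the mean of Pim3 over all libraries exceeded that of 98.6% of the listed genes, while the mean of Socs2 exceeded that of 35.5%.

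In IgG replicate 2 the 7 SOCS genes and Pim1 were at their highest within the IgG group, and Pim2 and Pim3 at their lowest. This library showed the same among other genes, being the highest IgG library for 85.0% of all genes called lower and the lowest for 71.1% of all genes called higher, calls that this library itself entered, and the highest for 59.3% and the lowest for 18.7% of all tested genes. Without it the log2 fold changes were smaller, at -0.79 for Socs1, -0.77 for Socs2, -0.41 for Socs3, -0.61 for Pim1, 0.43 for Pim2 and 0.88 for Pim3, with adjusted p from 0.00478 to 0.0296 in limma. Over the 6 deviations from the group means, which share their libraries, Pearson's r ran from -0.97 (Socs2 and Pim3) to 0.96 (Socs1 and Socs3) among all pairs of the 10 genes, given as a description. Other pairs were weakly related, with 0.26 for Socs1 and Socs5, -0.14 for Socs7 and Pim2 and -0.26 for Socs5 and Pim2.

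The genes whose log2(FPKM + 1) followed that of a called gene most closely over the 6 libraries were Pkp2, Nfil3 and Bhlhe40 for Pim3 (Pearson's r from 0.9976 to 0.9986). Nfil3, a transcription factor gene that IL-2 and IL-4 are known to induce, rose from 403 to 543 FPKM, and Bhlhe40, a transcriptional repressor gene of activated T cells, from 390 to 568 FPKM. For Pim1 they were Ccnt1, Snx4 and Tnfrsf10b (0.9982 to 0.9986), for Socs1 Inf2, Dgkz and Prkar1a (0.9984 to 0.9992), and for Socs2 Wdr82, Mbd2 and Polr1a (0.9991 to 0.9993). As the difference between the groups dominates such an r, high values are frequent, and these are given as a description of 6 libraries.

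The genes around the SOCS and PIM loop were described with 8 lists written from general knowledge, which hold 92 tested genes in all, 34 of them called lower and 5 higher, where 23.8% of all tested genes were called lower and 4.87% higher. Without anti–VEGF-B replicate 3 the counts were 20 and 2 (702 and 163 over all genes), and without IgG replicate 2 they were 24 and 3 (1073 and 257). They were 27 and 3 without anti–VEGF-B replicate 1 (1389 and 312), 27 and 2 without anti–VEGF-B replicate 2 (1456 and 286), and 20 and 15 after median centring (918 and 1421). The median log2 fold change of these 92 genes was -0.26, against -0.15 over all genes.

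Of the ligands, 6 of 11 tested cytokine genes were called lower and 1 higher, where 23.8% of all tested genes were called lower and 4.87% higher. Lif and Osm, cytokines of the IL-6 family, and Il21, the helper cell cytokine that signals mainly through STAT3, had the lowest p. Lif fell from 12.0 to 3.90 FPKM (log2 fold change -1.37), Osm from 4.50 to 1.19 (-1.29) and Il21 from 2.70 to 0.961 (-0.91), with adjusted p of 0.00469, 0.00634 and 0.00499 in limma. Il21 was under 1 FPKM with anti–VEGF-B and passed the filter only through the IgG group, where it was high. The 1 rise was that of Il2, named after its value was seen (0.559 to 1.51 FPKM). It passed the filter only through the anti–VEGF-B group. Without any 1 of the anti–VEGF-B libraries its mean was under 1 FPKM, so that it was not tested. Of 17 tested receptor genes, 10 were called lower and 0 higher. Without anti–VEGF-B replicate 3, 6 were lower, where 702 of all tested genes were lower. After median centring 6 were lower and 3 higher, where 918 of the 8816 genes were lower and 1421 higher. Il2ra, the high-affinity subunit of the IL-2 receptor, fell from 117 ± 28.9 to 58.3 ± 7.01 FPKM, at -0.97 on the log2 scale and a limma adjusted p = 0.00664. Il2rg, the common gamma chain, fell from 51.7 ± 6.91 to 32.0 ± 0.336 FPKM (-0.67) and Il6ra, the IL-6 receptor subunit, from 2.89 ± 0.448 to 1.42 ± 0.120 (-0.68).

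Between receptor and nucleus, 2 of 11 JAK kinase and STAT genes were called lower and 0 higher, among them Tyk2, a JAK family kinase gene, which went from 3.00 ± 1.01 to 1.59 ± 0.163 FPKM (-0.60 in log2, limma adjusted p = 0.0259). The share of all tested genes called lower was 23.8%, so that this count is no result about the list. Only 1 was lower without anti–VEGF-B replicate 1 or 3 (1389 and 702 over all genes). Median centring gave 2 lower and 3 higher, where 918 of all tested genes were lower and 1421 higher. Stat5a and Stat5b, through which IL-2 acts on Cish and Pim1, did not pass, with 21.7 ± 0.978 against 26.1 ± 2.23 FPKM for Stat5a (adjusted p = 0.0548 from limma) and 63.8 ± 2.58 against 65.6 ± 5.11 FPKM for Stat5b (0.749). These were named for that role.

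Other brakes on the pathway moved both ways, where 23.8% of all tested genes were called lower and 4.87% higher. Of 12 tested genes 5 were called lower, with the lowest p for Sh2b3, an adaptor that restrains JAK signals (4.94 ± 0.753 to 2.36 ± 0.175 FPKM, log2 fold change -0.82), Ptpn6, which encodes the phosphatase SHP-1 (52.8 ± 4.76 to 39.6 ± 2.71 FPKM, -0.40), and Ptpn11, which encodes SHP-2 (5.26 ± 1.13 to 3.11 ± 0.162 FPKM, -0.59). Ptpn2, a phosphatase gene for JAK1, JAK3 and STAT proteins, and Cblb, a ubiquitin ligase gene, were called higher, going from 70.8 ± 8.19 to 89.2 ± 3.62 FPKM and from 45.0 ± 1.86 to 56.5 ± 4.70 FPKM. These 2 genes were named after their values were seen. In this list 1 gene was called lower without anti–VEGF-B replicate 3 (702 over all genes). There were 3 without IgG replicate 2 or 3 (1073 and 1514 over all genes), and 2 after median centring (918). The count of higher calls was 1 without anti–VEGF-B replicate 1 and 0 without anti–VEGF-B replicate 2 or 3 or IgG replicate 2. Over all genes the higher calls of these fits were 312, 286, 163 and 257 in turn. Of the 7 genes for the SOCS box ubiquitin ligase, 0 were called by limma, with 1 at an unadjusted p under 0.05, Rnf7 (80.0 ± 6.21 to 93.3 ± 5.78 FPKM, adjusted p = 0.0722). Cul5, the scaffold, had 4.83 ± 0.333 FPKM in the IgG and 4.24 ± 0.222 in the anti–VEGF-B group (adjusted p = 0.245 from limma), and Nedd8, which activates cullins, had 31.5 ± 3.78 and 28.0 ± 5.16 (0.351).

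Targets of IL-2 were kept in 2 lists by the direction in which IL-2 is known to move them. Of 19 tested genes that IL-2 and STAT5 are known to raise, 9 were called lower, led by Lif, Osm and Il2ra. Only 1, Nfil3, was called higher, and the median log2 fold change was -0.42. Over all tested genes 23.8% were called lower and 4.87% higher, with a median of -0.15. In this list 2 were higher without IgG replicate 1 (395 over all genes). After median centring 6 were lower and 3 higher, where 918 of all genes were lower and 1421 higher. Of 10 genes that IL-2 is known to lower, 6 were called lower and 0 higher (median -0.36). Without IgG replicate 2 or any 1 of the anti–VEGF-B libraries 3 were lower. Over all genes 1073 were lower without IgG replicate 2, and 1389, 1456 and 702 without anti–VEGF-B replicates 1 to 3. After quantile, Actb or cyclic loess scaling 3 were lower (913, 1309 and 938 over all genes), and after median centring 2 (918). The 6 genes included Il6ra, Ccr7, a homing receptor of naive cells (160 ± 33.4 to 83.1 ± 14.3 FPKM, log2 fold change -0.93), and Tcf7, a transcription factor gene of naive and memory cells (75.1 ± 3.94 to 55.2 ± 5.50 FPKM, -0.44).

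Downstream of the kinases, 12 of 14 tested PIM substrate genes were not called, with 1 lower and 1 higher. Of all tested genes 23.8% were called lower and 4.87% higher. In the list 2 were lower without anti–VEGF-B replicate 1 or IgG replicate 1 (1389 and 2074 over all genes). Median centring gave 1 lower and 3 higher, where 918 of all tested genes were lower and 1421 higher. Quantile normalization or cyclic loess gave 2 lower (913 and 938 over all genes). The fit with no filter, in which listed genes averaging under 1 FPKM can enter, gave 3 lower (2325 over all genes). Nfatc1, a factor of T cell receptor signals that PIM1 phosphorylates, fell from 17.4 ± 2.78 to 9.23 ± 1.19 FPKM (-0.84 in log2, limma adjusted p = 0.00527), and Foxo1, a factor of quiescence, rose from 32.3 ± 2.45 to 45.6 ± 4.02 FPKM (0.48, adjusted p = 0.00875). Eif4ebp1, the translation repressor 4E-BP1, had 75.0 ± 3.84 FPKM in the IgG and 86.8 ± 3.05 in the anti–VEGF-B group (0.21, adjusted p = 0.0538 from limma). PIM kinases act on these proteins by phosphorylation, which RNA-Seq does not measure.

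**Figure D4:**
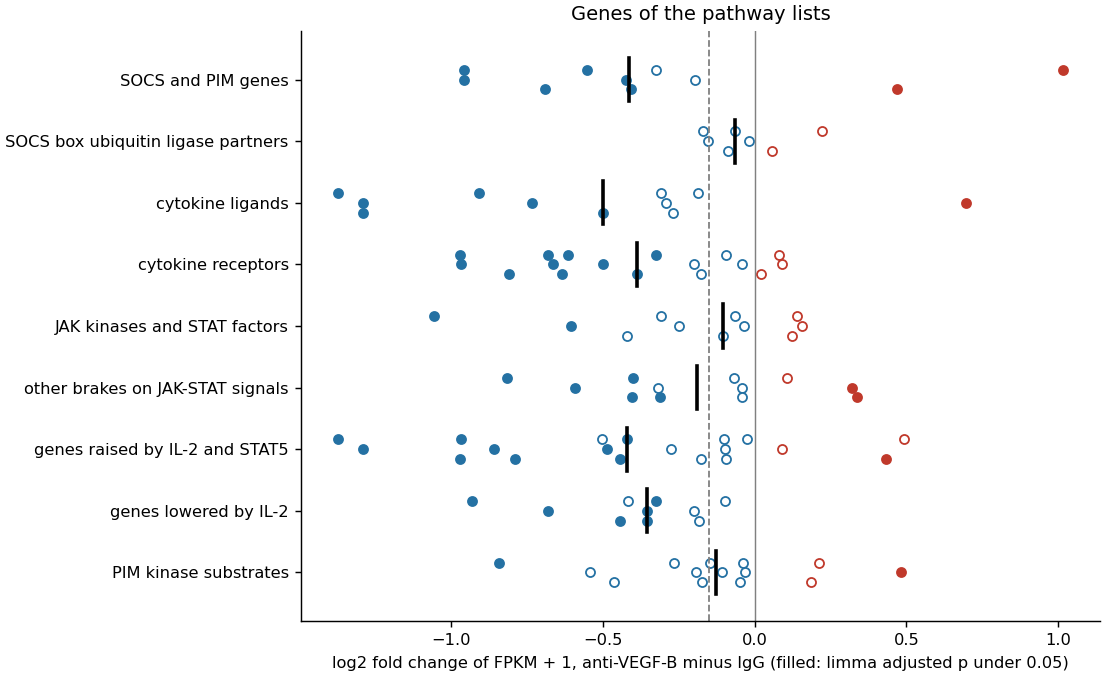
Log2 fold change of FPKM + 1 (anti–VEGF-B minus IgG) of every tested gene of the SOCS and PIM genes and of 8 pathway lists, 1 point a gene (blue below 0, red above 0, filled where the limma adjusted p was under 0.05), with the median of each list as a black bar and that of all tested genes (-0.15) as a dashed line. The medians run from -0.50 for the cytokine ligands to -0.065 for the SOCS box ligase partners, and Pim3 at 1.02 is the highest point.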

How the data were processed

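The authors made stranded libraries, mapped them with hisat2 to GRCm38 and used StringTie and Ballgown for quantification. The deposited table gives FPKM of protein-coding genes. It is called raw data, but holds fractional values and was taken as FPKM, so that no count model was fitted. No normalization between libraries and no filter is stated, and at most 0.935% of low genes shared a ratio between a pair of libraries, so that reads could not be recovered.

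Genes averaging 1 FPKM or more (8816) were fitted as log2(FPKM + 1) in R 4.3.3 with limma 3.58.1 (empirical Bayes with trend, no covariate, all 6 libraries), with calls at a Benjamini-Hochberg adjusted p under 0.05. The procedure was tested on simulated data. The SOCS and PIM genes, the ratios and the 8 lists were chosen with earlier results of these data known, and 9 genes stand in more than 1 list. Named were all SOCS and PIM genes, the 3 genes of each list with the lowest p, and the 3 genes most similar (Pearson's r) to each of the 4 called genes with the lowest p, with exceptions stated and 1 gene not reported here. Each choice of scaling, filter, pseudocount, moderation, threshold, block and library was varied in turn. Promoter sequences were not analysed here.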

Additional observations from a re-analysis of the deposited data

How the results depend on the processing

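Of the 10 SOCS and PIM genes, 6 were called lower and 2 higher. With no moderation of the variance these counts were 0 and 0 and those of the 92 pathway genes 0 and 0. Over all tested genes 6 were then called lower and 6 higher. In that fit 42 of the pathway genes had an unadjusted p under 0.05. The share of all genes at this limit was not counted, so that 42 is no result about the pathway genes. With a call set at a log2 change of over 0.5 either way and an unadjusted p under 0.05, 4 SOCS and PIM genes were lower and 1 higher, and 21 pathway genes were lower and 1 higher. Over all tested genes 998 were lower and 123 higher by that rule. With the filter raised to 5 FPKM, which tests fewer genes, 22 pathway genes were lower and 4 higher, where 989 of all tested genes were lower and 342 higher. Median centring gave 20 pathway genes lower and 15 higher, and set Socs4 to 0.0077. The other scalings left 4 (quantile, cyclic loess) or 5 (Actb) SOCS and PIM genes lower and 2 higher. Over all tested genes the split of 2099 lower and 429 higher became 913 and 880 (quantile), 918 and 1421 (median centring) and 938 and 852 (cyclic loess), as the median of all genes moved to between 0.0019 and 0.038. Scaling to Actb gave 1309 lower and 365 higher. Leaving out 1 library gave 3 to 6 SOCS and PIM genes lower and 2 higher, and 20 to 38 pathway genes lower and 2 to 6 higher. Over all tested genes 702 to 2074 were then lower and 163 to 395 higher. Replicates with the same number did not deviate together (correlations of -0.030, 0.11 and 0.089), so the numbers were not taken as pairs. With a replicate block, 7 SOCS and PIM genes were lower, Socs7 being added (limma adjusted p = 0.0491, the alternatives ranging from 0.0491 to 0.396), and 2 higher, and 4 PIM substrate genes were lower and 2 higher and 5 JAK and STAT genes lower. Over all tested genes the block gave 2109 lower and 469 higher. The 4 ratios kept their direction in every alternative in which they were run. These were quantile normalization, cyclic loess, the pseudocount of 0.1, the replicate block and each library left out. With a library left out the direction of none of the 4 could change, as the groups did not overlap, and the block leaves each difference as it was. For the Pim1 ratios another pseudocount could not change the direction either. With 3 libraries a group and unknown depth, the precision rests on the spread between libraries alone.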
